A study of Mus musculus with 4 samples.

Results

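A set of 7 genes of thyroid hormone transport, activation and reception was described in the mouse cochleovestibular ganglion at embryonic day 11.5. They were Ttr, Dio2, Dio3, Dio3os, Thra, Thrb and Slc16a10, which are 7 of 25239 gene symbols in the tables, matched by symbol. They were chosen by their TPM (transcript abundance) across these same 4 genotypes, so every difference between libraries given for them is a description and was not tested. The ganglion was dissected and frozen, and total RNA was sequenced from 1 library of each of 4 genotypes. The genotypes carry the labels control, Isl1CKO, Pou4f1KO and DKO. By these names, Isl1 is removed conditionally in the first mutant, Pou4f1 is knocked out in the next and DKO lacks both, and the age is the same in all 4. The Cre line, the strain, the alleles of the control and the number of embryos behind a library are not given in the sources used here.

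Thyroid hormone leaves the thyroid gland mainly as thyroxine and is bound by carrier proteins in blood and cerebrospinal fluid, of which transthyretin, the product of Ttr, is one. It enters cells through membrane transporters. Inside, the type 2 deiodinase (Dio2) makes the active hormone triiodothyronine from thyroxine, and the type 3 deiodinase (Dio3) inactivates both hormones. The receptors encoded by Thra and Thrb are nuclear receptors that bind DNA, usually with a retinoid X receptor, and switch between corepressors and coactivators when the hormone binds. In the inner ear, Thrb and both deiodinases are known for their role in the later maturation of the cochlea and of hearing.

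The aligned sequence was inferred from the median ratio of coverage to FPKM, and came to between 13.6 and 16.6 gigabases per library. By that ratio a typical gene at 1 TPM, a unit scaled for gene length and to one total per library, was covered 4.95 to 5.93 times. Some genes were covered less than this at their level, with 0.22 to 0.23 of the typical depth for Thrb, 0.77 for Thra and 0.79 to 0.81 for Slc16a10. The tables give no read counts, so no counting interval could be put on a value, and 1 library per genotype leaves no replicate check of any difference. Unless said otherwise, 4 values in a row stand in the order control, Isl1CKO, Pou4f1KO, DKO. Pou4f1 stood at 146, 188, 16.6 and 14.6 TPM, which goes with the labels. Isl1 stood at 450, 854, 340 and 579 TPM and so was not lower in either library marked as lacking it. The deleted exons are not separated from the rest in a gene-level value, so it does not check these labels. Every direction below that involves the library labelled Isl1CKO or the library labelled DKO rests on its label, also where the names Isl1CKO and DKO stand alone. Neuronal markers were abundant in each library, with Tubb3 at 2636 to 3017 TPM. The label names neurons, but glial Sox10 (145 to 160 TPM), red-cell Hba-a1 (1511 to 1845 TPM) and epithelial Epcam (13.7 to 87.8 TPM) were measured in all 4 libraries, so RNA typical of other cells was present. These markers were picked for naming after their values were seen.

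Differences are log2 ratios of (TPM + 1), which shrinks the differences of genes with few transcripts. A gene was called higher or lower at a ratio of 1 or more, or −1 or less, that is past 2-fold. A gene was compared if it reached 1 TPM in at least 1 library, which 15049 symbols and 5 of the 7 thyroid genes did. Dio2 and Thrb stayed below 1 TPM in every library. Different patterns appeared among the 7 genes. Ttr was lowest in control and highest in DKO, Dio3 and Dio3os were highest in control and lowest in DKO, and the other genes spanned less than 2-fold on this scale.

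**Figure D1:**
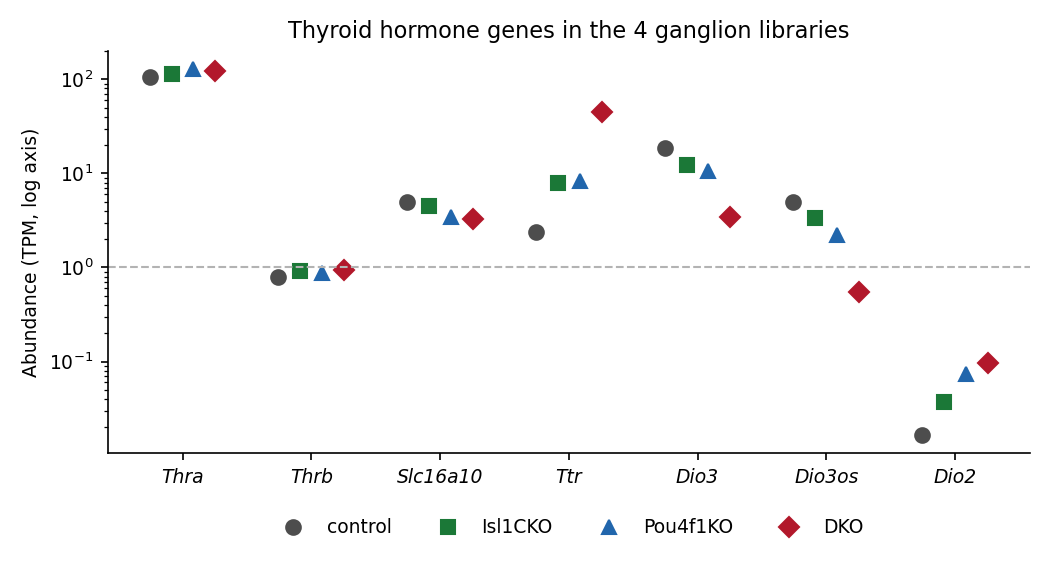
Abundance in TPM on a log axis of the 7 thyroid hormone genes, with 1 point per library and the 1 TPM level as a dashed line. Ttr goes from 2.36 TPM for control to 44.8 TPM for DKO, Dio3 from 18.5 to 3.46 TPM, while the 4 points of Thra lie between 107 and 129 TPM.

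The carrier was the gene that differed most. Ttr (chromosome 18, plus strand, up to 4 exons, per GENCODE M21) stood at 2.36, 7.92, 8.22 and 44.8 TPM. Both single mutants were above control and within 0.3 TPM of each other, and DKO stood above all 3. The mean read depth over the gene was 14.0, 39.2, 47.4 and 261, so none of these values rests on a handful of bases. In a whole ganglion, more cells that make Ttr and more Ttr RNA per cell cannot be told apart, and the same holds for each gene below.

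Against control, Ttr was 3.35-fold higher in Isl1CKO as a ratio of TPM (log2 ratio of TPM + 1, 1.41). It was the 1 of the 5 compared thyroid genes called higher there, where 1.2% of all compared genes were past 2-fold, 0.585% higher and 0.618% lower. None of the 5 was called lower in Isl1CKO. In Pou4f1KO Ttr was 3.48-fold higher than control (log2 ratio 1.46), again the 1 higher gene of 5 with 0 lower, where 2.7% of all compared genes were past 2-fold, 0.977% higher and 1.73% lower. In DKO it was 18.96-fold higher than control (log2 ratio 3.77), which was the largest log2 ratio among the 15049 compared genes. Ttr and both Dio3 locus genes made 1 higher and 2 lower of 5 in DKO against control, beside 3.35% of all compared genes past 2-fold, 1.01% higher and 2.34% lower. These 3 comparisons share the control library, so they are not independent of each other. With a pseudocount of 5 TPM the ratios of both single mutants dropped under 2-fold (0.81 and 0.84).

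The 2-by-2 layout gives 2 pairs of libraries for each label that have no library in common. The step tied to the Isl1CKO label was a log2 ratio of 1.41 for Ttr from control to Isl1CKO and 2.31 from Pou4f1KO to DKO. The step tied to the Pou4f1KO label was 1.46 from control and 2.36 from Isl1CKO to DKO. Each step went up in both backgrounds and was larger where the other label was already present. The sum of both single-mutant ratios was 2.86 against 3.77 in DKO, a departure from additivity of 0.90. That departure was under the 2-fold line, and 290th from the top among all compared genes. No thyroid gene passed 2-fold in the departure, where 2.52% of all compared genes did, and the departure has no residual degrees of freedom.

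Genes of retinol transport that work with transthyretin did not follow Ttr. Rbp4, the plasma retinol-binding protein that travels bound to transthyretin, stood at 1.83, 0.775, 0.635 and 0.895 TPM. Its cell surface receptor gene Stra6 lay between 34.8 and 46.3 TPM. Neither gene was past 2-fold in any comparison.

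The epithelium of the choroid plexus is the best known site of Ttr in the nervous system, and liver and yolk sac are the main sites elsewhere, so markers of both were read beside it. Of 15 choroid plexus markers without Ttr, 10 were compared, and in DKO against control 3 were higher and 1 lower (median 0.49, against −0.01 for all compared genes). That median was 0.25 with no filter, 0.17 with FPKM and −0.07 over the markers that reach 5 TPM, so its direction depends on which markers are counted. The higher ones were the chloride channel gene Clic6 (3.46, 4.23, 4.99 and 8.43 TPM), Kcne2 (0.265, 0.897, 0.479 and 2.35 TPM) and Sostdc1 (0.846, 0.616, 0.711 and 3.16 TPM). Kcne2 and Sostdc1 were named after their values were seen, and Clic6 missed 2-fold under pan-neuronal scaling (0.97). The lower one was Lmx1a (36.5, 18.1, 6.26 and 7.97 TPM), which also marks otic epithelium. Otx2, a head patterning factor needed for the choroid plexus, stood at 10.2, 8.75, 3.53 and 6.25 TPM.

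Some other choroid plexus markers were near 0 in every library. Folr1 was listed at 0 in control and Isl1CKO and stood at 0.210 TPM in Pou4f1KO and 0.405 TPM in DKO. Kl stayed between 0.0151 and 0.108 TPM, and Cldn2 stood at 0.0165, 0.0396, 0.0509 and 0.205 TPM. These 3 were also named after their values were seen. So were Slc4a5 (0.343, 0.372, 0.723 and 1.44 TPM) and Aqp1 (1.56, 1.81, 1.80 and 2.66 TPM), both highest in DKO. Of the 10 compared markers, 6 were above 0 and 4 below 0 in DKO against control. The summed level of the 15 markers was 93.2, 66.4, 61.0 and 73.5 TPM, and most of it came from Lmx1a, Enpp2 and Otx2. The part of choroid plexus cells in the Ttr values was not tested.

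**Figure D2:**
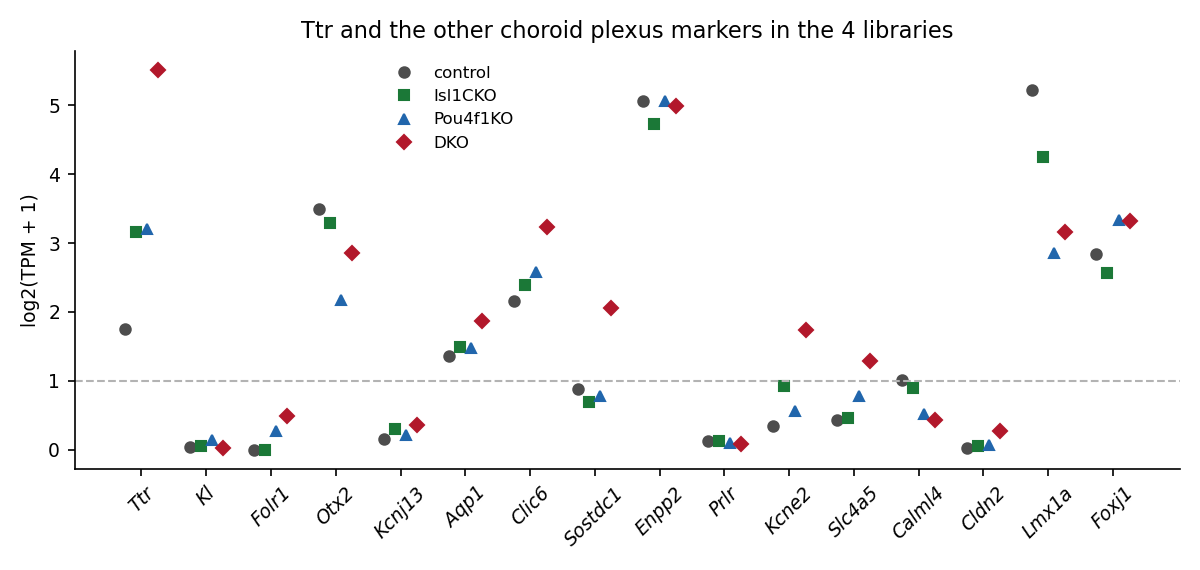
Level as log2(TPM + 1) of Ttr and the 15 other choroid plexus markers in the 4 libraries, with a dashed line at 1 TPM. Clic6, Kcne2, Sostdc1, Slc4a5 and Aqp1 are highest in DKO as Ttr is, whereas Lmx1a and Otx2 are highest in control. Kl, Folr1, Prlr, Cldn2 and Kcnj13 lie under 1 TPM in all 4.

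The summed level of 12 liver and yolk sac markers without Ttr was 9.63, 3.63, 2.87 and 4.37 TPM. This sum was highest in control and, among the mutants, highest in DKO. Of the 12, 7 were below 1 TPM in control and 11 in each mutant. Of the 5 compared, 2 were lower and 0 higher in DKO against control, and against Pou4f1KO and Isl1CKO none was past 2-fold but 4 were above 0 in each. Afp, the alpha-fetoprotein gene of yolk sac and fetal liver, stood at 2.80, 0.206, 0.171 and 0.766 TPM. Alb, the albumin gene, stood at 1.40 TPM in control, was down to 0.0400 TPM in Isl1CKO and was listed at 0 in the 2 other libraries, and Serpina1a was listed at 0 in all 4. Apom, an apolipoprotein gene, stood at 1.24, 1.39, 1.25 and 1.60 TPM and so was highest in DKO, unlike the sum. The part of liver or yolk sac cells in the Ttr values was not tested.

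Summed over 15 genes, mesenchyme markers were highest in DKO as Ttr was, at 347, 251, 323 and 472 TPM. In DKO against control 13 were above 0 and 2 below 0, namely Dcn and Pou3f4, both highest in control. Of these 15, 1 was at least 2-fold higher in DKO against control, 5 against Isl1CKO and 3 against Pou4f1KO, with 0 lower in each. Over all compared genes, 1.01%, 0.87% and 0.645% were higher in these comparisons. The 3 against Pou4f1KO were Prrx2 (1.42), Twist2 (1.26) and Tbx18 (1.25). The summed mesenchyme level of both single mutants was below that of control, whereas Ttr was above control in both. Endothelium markers summed to 125, 89.8, 117 and 151 TPM over 10 genes, and all 10 were above 0 in each of the 3 DKO comparisons, with 2 past 2-fold against Isl1CKO. The part of mesenchyme or endothelium in the Ttr values was not tested.

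By the distance between centred log2(TPM + 1) values over the 4 libraries, the genes nearest to Ttr among 12055 candidates were Cdh9, Lmo3, Pkd2l1, Stac and Medag, at distances of 1.10 to 1.46. The nearest, the cadherin gene Cdh9, stood at 0.853, 2.55, 5.49 and 10.7 TPM. Pkd2l1, which encodes a channel subunit of the polycystin family, stood at 7.44, 23.2, 15.5 and 40.7 TPM. All 5 were lowest in control and highest in DKO, an order that choosing genes by their distance to Ttr favours. The 4 values of Ttr covered 3.77 on this scale. This was the largest ratio of DKO to control among all compared genes, so no gene with that order could span more.

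The inactivating enzyme and its neighbouring non-coding RNA ran the opposite way. Dio3 (mm10 chromosome 12, 110279230 to 110281097, plus strand, 1 exon) stood at 18.5, 12.3, 10.6 and 3.46 TPM. Dio3os (chromosome 12, 110275385 to 110278068, minus strand, up to 4 exons), a long non-coding RNA transcribed away from Dio3, stood at 5.03, 3.37, 2.20 and 0.553 TPM in the same order. Both genes had the same order of libraries, with control highest, both single mutants between and DKO lowest. The mean read depth of Dio3 ran from 110 in control to 20.1 in DKO, and that of Dio3os from 29.8 to 3.22, so Dio3os in DKO is the least firmly measured of these values.

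The 2 start sites lie 1162 bases apart in these tables and face away from each other, so no base is shared by both rows. The 250 bases before each start, from RefSeq on build GRCm38.p6, are shown because both genes differed in the same direction and the compared genes within 1 megabase, short RNA genes set aside, were not past 2-fold. Capitals mark TATAAA and CCAAT on either strand (ATTGG is CCAAT on the other strand), motifs searched after the sequences had been seen. The Dio3 window is chr12:110278980-110279229 on the plus strand and the Dio3os window is chr12:110278069-110278318 on the minus strand.
Dio3: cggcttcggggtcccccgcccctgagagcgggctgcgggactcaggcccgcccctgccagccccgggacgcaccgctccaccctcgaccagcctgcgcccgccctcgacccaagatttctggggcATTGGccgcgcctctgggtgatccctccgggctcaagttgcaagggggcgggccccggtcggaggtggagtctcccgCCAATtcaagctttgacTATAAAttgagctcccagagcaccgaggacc
Dio3os: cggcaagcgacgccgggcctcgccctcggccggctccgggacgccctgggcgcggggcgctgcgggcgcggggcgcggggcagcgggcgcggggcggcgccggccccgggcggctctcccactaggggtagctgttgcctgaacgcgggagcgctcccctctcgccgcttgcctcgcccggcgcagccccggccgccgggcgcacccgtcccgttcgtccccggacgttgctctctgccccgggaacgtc

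The Dio3 window held TATAAA from 31 to 26 bases before the start, and CCAAT at 48 to 44 bases before it and again, on the other strand, at 125 to 121 bases. The Dio3os window held neither motif. Of 32851 RefSeq windows of this length, 12.4% held TATAAA and 33.8% held CCAAT on either strand. Both windows were rich in G and C (69.6% for Dio3 and 82.0% for Dio3os, against a median of 52.4%), with 21 and 44 CG dinucleotides against a median of 6. Neither held TAAT, the core shared by many homeodomain sites, which 54.9% of all windows held. ATTAAT and CTAATG, and AGGTCA, the nuclear receptor core hexamer, were found in neither window, and in 4.39%, 6.36% and 14.0% of all windows, both strands counted. ATTAAT and CTAATG contain TAAT, so these shares overlap. GENCODE M21 places both starts closer together, 896 bases apart.

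As a ratio of TPM, Dio3 was 1.505-fold lower than control in Isl1CKO, 1.74-fold lower in Pou4f1KO and 5.34-fold lower in DKO, with log2 ratios of −0.55, −0.75 and −2.13. Dio3os was 1.49-fold, 2.28-fold and 9.10-fold lower, with log2 ratios of −0.46, −0.91 and −1.96. Neither was called in a single mutant, and both were called lower in DKO. With no pseudocount or one of 0.1 TPM, and under pan-neuronal scaling, Dio3os was also past 2-fold in Pou4f1KO (−1.06 to −1.19). With a pseudocount of 5 TPM its ratio in DKO shrank to −0.85.

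Each label's step again went the same way in both backgrounds. The step tied to the Isl1CKO label was −0.55 for Dio3 from control and −1.38 from Pou4f1KO to DKO, and −0.46 and −1.04 for Dio3os. The step tied to the Pou4f1KO label was −0.75 for Dio3 from control and −1.57 from Isl1CKO to DKO, and −0.91 and −1.49 for Dio3os. In DKO against Pou4f1KO, 2 of the 5 compared thyroid genes were lower and 1, Ttr, higher, where 1.76% of all compared genes were past 2-fold, 1.12% lower and 0.645% higher. In DKO against Isl1CKO the counts were the same, beside 2.1% of all compared genes past 2-fold, 1.23% lower and 0.87% higher. The call of Dio3os against Pou4f1KO was lost under pan-neuronal scaling (−0.94) and with FPKM (−0.56), and with FPKM its call against Isl1CKO was lost too (−0.89). With a pseudocount of 5 TPM the calls of Dio3 (−0.88) and Dio3os against Pou4f1KO and of Dio3os against Isl1CKO were lost. With the overlapping row Mir1247 added to Dio3os, a sum chosen after the data were seen, the ratio was −1.79 in DKO against control and −1.30 in Pou4f1KO against control. Both calls of Dio3os against the single mutants were lost in that sum (−0.49 against Pou4f1KO and −0.96 against Isl1CKO). The sum adds the TPM values of both rows and does not reassign reads that they share. The departure from additivity was −0.83 for Dio3 and −0.58 for Dio3os, which turned to 0.34 in the sum with Mir1247.

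**Figure D3:**
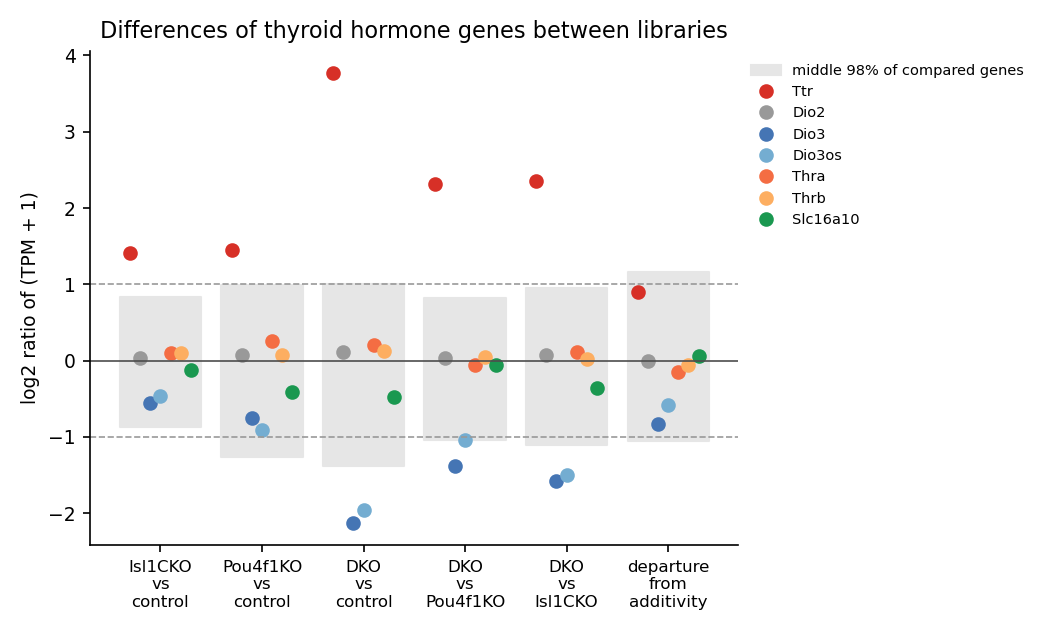
Log2 ratios of (TPM + 1) of the 7 thyroid hormone genes in the 5 comparisons and the departure from additivity, with dashed lines at 2-fold and grey boxes from percentile 1 to percentile 99 of all 15049 compared genes. Ttr lies above the box in all 5 comparisons, and Dio3 lies below it in the 3 comparisons of DKO.

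Dio3 stood above Dio3os in every library, by 3.67, 3.64, 4.81 and 6.25 times as ratios of TPM. Dio3 and Dio3os lie at one end of the imprinted Dlk1-Dio3 cluster, and its other genes did not share the pattern. Meg3, the maternally expressed long non-coding RNA of the cluster, stood at 146, 152, 189 and 201 TPM. Dlk1, which encodes a Notch ligand-like protein, lay between 5.43 and 6.37 TPM, Rian between 158 and 217 TPM and Mirg between 11.2 and 16.2 TPM. None of these 4 compared genes was past 2-fold in any comparison, and in DKO all 4 were above control by ratios of 0.20 to 0.50. Of 15 compared genes within 1 megabase of Dio3 on either side, left after short RNA genes were set aside, none was past 2-fold in any comparison, with ratios of −0.18 to 0.45 in DKO against control. The hairpin row Mir1247 overlaps the start of Dio3os by 21 bases and stood at 2.18, 0.247, 0.129 and 0.822 TPM. Unlike the 15 genes, this short RNA gene was past 2-fold against control in Isl1CKO (−1.35) and Pou4f1KO (−1.49), and its departure from additivity was 2.04. It stayed below 1 TPM in each mutant, so these ratios rest on its 2.18 TPM in control. Its ratio in DKO against control was −0.80, so it did not share the order of Dio3os.

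The gene nearest to Dio3 in its 4 values was Scn9a, the sodium channel NaV1.7 of sensory neurons, at a distance of 0.06. Scn9a stood at 66.8, 47.3, 41.0 and 14.6 TPM. Next came Dio3os (0.25), the SOX-family factor gene Sox21 (0.36), 1700024G13Rik (0.37) and the zinc-finger gene Zfp804a (0.38). Nearest to Dio3os were Zfp804a (0.20), Spp1, the osteopontin gene (0.24), Asic1, an acid-sensing ion channel gene (0.24), Dio3 (0.25) and Scn9a (0.28). With 4 libraries and 12055 candidates some genes lie close to any pattern, so these neighbours are a description.

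**Figure D4:**
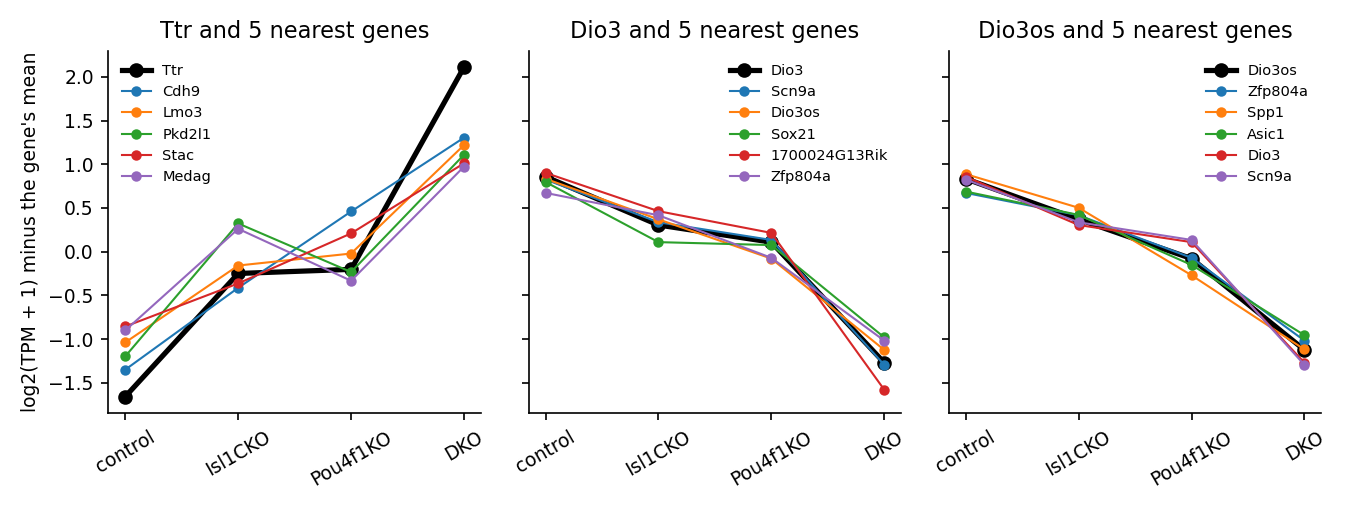
Level as log2(TPM + 1) minus the gene's own mean over the 4 libraries, for Ttr, Dio3 and Dio3os (black) and the 5 genes nearest to each (colours); lines only join the values of a gene. Scn9a lies on Dio3 within a distance of 0.06, while the genes nearest to Ttr span less than Ttr does.

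Summed levels of markers of other cells differed between the libraries in both directions. Otic epithelium markers summed to 966, 746, 753 and 628 TPM over 15 genes, and 9 of them were lower in DKO against control with 0 higher. Surface ectoderm and epithelium markers summed to 382, 225, 71.4 and 79.1 TPM over 10 genes. From Pou4f1KO to DKO, 7 of the 9 compared were above 0 and 2, Epcam and Esrp1, were below 0. The summed level of mesenchyme markers was highest in DKO, as given above. Sensory neuron and pan-neuronal markers summed to between 14118 and 16287 TPM over 18 genes. In DKO against control, 10 of the 18 were above 0 and 8 below 0 (median 0.12). None was called higher there and 3 were called lower, namely Pou4f1, Prph and the neurotrophin receptor gene Ntrk2 (72.6, 55.2, 57.2 and 27.5 TPM). The part of any of these cells in the Dio3 values was not tested.

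The activating enzyme was close to the limit of these libraries. Dio2 (chromosome 12, 90724552 to 90739038, minus strand, up to 2 exons) stood at 0.0166, 0.0370, 0.0742 and 0.0960 TPM. Its mean read depth was 0.0984 to 0.559, which is less than 1 read per base, so no order of the libraries can be read from it. Dio1, the deiodinase of liver, kidney and thyroid, stood at 0.0300 TPM (control) and 0.0305 TPM (DKO), and was listed at 0 in both single mutants. Dio3 therefore had the highest level of the 3 deiodinase genes in every library, DKO included. All 3 enzymes are selenoproteins, and 6 genes that place selenocysteine in proteins, from Secisbp2 to Trnau1ap, lay between 11.6 and 64.6 TPM with none past 2-fold in any comparison. Trnau1ap lay between 56.4 and 64.6 TPM, and Sephs2 between 42.3 and 45.2 TPM.

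Among transporters, Slc16a10 (chromosome 10, 40033535 to 40142254, minus strand, up to 6 exons), which encodes the aromatic amino acid and thyroid hormone transporter MCT10, stood at 4.94, 4.46, 3.45 and 3.26 TPM. Its log2 ratio to control was −0.12, −0.42 and −0.48, none past 2-fold. Its step at the Pou4f1KO label was −0.42 from control and −0.36 from Isl1CKO to DKO, and its departure from additivity was 0.06.

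Of the other 10 carriers and transporters of the pathway list, 7 were compared. In DKO against control 1 of the 7 was higher and 1 lower, where 3.35% of all compared genes were past 2-fold. The higher one, Slco4a1, which encodes an organic anion transporter that carries thyroid hormone, stood at 23.1, 44.0, 34.7 and 51.2 TPM (log2 ratio 1.11, or 0.99 under pan-neuronal scaling). The lower one was Alb, the minor plasma carrier given above, which was compared only through its 1.40 TPM in control. Crym, a cytosolic protein that binds triiodothyronine, stood at 101, 67.0, 47.6 and 56.7 TPM. It was past 2-fold in Pou4f1KO (−1.07), with Alb the other lower member there, beside 2.7% of all compared genes past 2-fold. Slc7a5 (39.3 to 50.9 TPM) and Slc3a2 (67.5 to 75.5 TPM), the light and heavy chain of an amino acid transporter that also carries thyroid hormone, differed little between libraries. The blood carrier gene Serpina7 and the brain vessel transporter gene Slco1c1 stayed at or under 0.312 TPM.

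Both receptor genes stayed well under 2-fold in every comparison. Thra (chromosome 11, 98741785 to 98769006, plus strand, up to 10 exons) stood at 107, 115, 129 and 124 TPM. Its log2 ratio to control was 0.10, 0.26 and 0.21, and under pan-neuronal scaling −0.01, 0.05 and 0.09. From Pou4f1KO to DKO it was −0.05, and 0.04 under that scaling, so the sign of these small differences depends on the scaling. Thra makes a hormone-binding receptor and a splice form that does not bind the hormone, and these gene-level values do not separate them. Its end overlaps the clock repressor gene Nr1d1 on the other strand by 1075 bases. Nr1d1 stood at only 3.71 to 4.62 TPM, and the summed value of both genes gave ratios of 0.09, 0.25 and 0.21, close to those of Thra alone. Thrb (chromosome 14, 17660960 to 18038088, plus strand, up to 10 exons) stood at 0.786, 0.922, 0.879 and 0.947 TPM. Thra was 125 to 146 times as abundant as Thrb by TPM in these libraries.

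The list of receptor partners and coregulators held 14 compared genes, among them the overlapping clock gene Nr1d1, and none was past 2-fold in any comparison. Their median ratio in DKO against control was 0.02, against −0.01 for all compared genes. Of the retinoid X receptor genes, Rxra lay between 23.1 and 27.6 TPM, Rxrb between 62.3 and 65.2 TPM and Rxrg between 8.45 and 10.1 TPM. The corepressor gene Ncor1 stood at 87.1, 74.3, 94.6 and 75.8 TPM. The coactivator gene Ncoa1 had the largest ratio of the list against control, 0.37 in Pou4f1KO.

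Of 11 genes known to respond to thyroid hormone 9 were compared, and none was past 2-fold in any comparison. Klf9, a direct receptor target, stood at 3.65, 3.79, 3.54 and 4.03 TPM. Hr, a target that encodes a receptor corepressor, stood at 4.01, 3.15, 3.70 and 2.86 TPM. Nrgn, the neurogranin gene, stood at 3.24, 1.98, 2.68 and 4.01 TPM, and its largest ratio was 0.75 in DKO against Isl1CKO, with a departure from additivity of 0.95. Atp2a2, the calcium pump gene, lay between 200 and 224 TPM. Their median ratio in DKO against control was 0.11.

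Genes of hormone synthesis were mostly at or near 0. Of 10 such genes, 2 were compared, and Tg, the thyroglobulin gene, stood at 0.0282 TPM at most. The 2 compared genes were Slc5a5, the iodide transporter gene (0.933, 1.51, 1.39 and 1.94 TPM), and Pax8 (0.867, 0.6002, 2.91 and 1.15 TPM), a factor of thyroid, ear and hindbrain. Pax8 was past 2-fold in Pou4f1KO (1.07, or 0.91 under pan-neuronal scaling). Hindbrain and neural tube markers summed to 146 TPM there over 18 genes, against 23.2 TPM in control, 57.5 in Isl1CKO and 63.4 TPM in DKO. Of the 17 compared, 17 were higher in Pou4f1KO against control (median 2.14), 2 in Isl1CKO (0.03) and 3 in DKO (0.22), with 0 lower in each. The 2 in Isl1CKO were Lhx1 (3.05 TPM in control, 28.8 TPM in Isl1CKO) and Lhx2 (4.03 and 12.2 TPM). From Pou4f1KO to DKO, 14 of the 17 were lower. The part of hindbrain and neural tube cells in the Pax8 value was not tested.

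**Figure D5:**
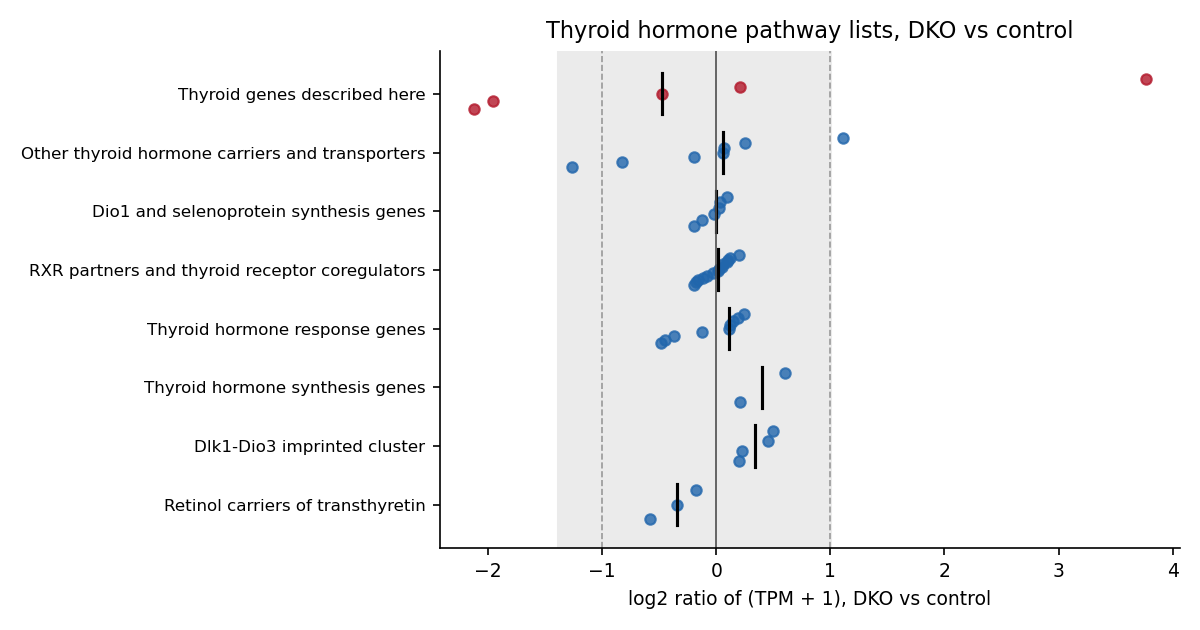
Log2 ratios of (TPM + 1) in DKO against control for the compared genes of each pathway list, with 1 point per gene (red for the 5 compared thyroid genes, blue for the others), black bars at the list medians, dashed lines at 2-fold and a grey band from percentile 1 to percentile 99 of all compared genes. Ttr at 3.77, Slco4a1 at 1.11, Alb at −1.26, Dio3 at −2.13 and Dio3os at −1.96 lie past 2-fold, and the receptor partners and selenoprotein genes lie close to 0.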

How the data were processed

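RNA of dissected cochleovestibular ganglia was measured in 4 libraries, 1 per genotype. Reads were processed on build mm10 with HISAT2 and StringTie, beside Trimmomatic, SAMtools and FastQC, per the submitters' processing notes. The sources used here do not give order, settings or annotation. The authors' deposited tables give TPM, scaled to the same total per library by the authors, and FPKM, per length and depth, per the file headers. Per the file headers, they also give coverage, the unscaled mean read depth of a gene. Directional libraries were made, per the labels' protocols.

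Rows sharing a symbol were summed (Python 3.11.15, pandas 2.3.3). Symbols were matched to GENCODE M21 for exon numbers and to RefSeq GRCm38.p6 promoters, where 5 of the 7 genes matched, with 6 windows. Thra and Ttr did not. The call rule was run on simulated data, but how firm its calls are in these 4 libraries was not tested. The members and lists were chosen with earlier results of these data known. Named were Isl1, Pou4f1, the 7 genes, pathway genes past 2-fold or else up to 4 per list, up to 4 cell markers per list with the largest ratios at 5 TPM or more, the 5 nearest genes and overlapping rows. Other cell markers and pathway genes were named after their values were seen. Ratios without pseudocount and the sums with Mir1247 and Gm16090 were added after seeing the data. Nearest genes needed 5 TPM in 1 library and a single row. Alternatives were 3 scalings (by pan-neuronal genes, by median of ratios, without 119 haemoglobin, ribosomal and mitochondrial genes), other pseudocounts and filters, FPKM, a 1.5-fold line and summed overlapping or adjacent genes. Leaving out replicates was not possible. Values of some list genes are not reported here.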

Additional observations from a re-analysis of the deposited data

How the results depend on the processing

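No log2 ratio of a thyroid gene past 2-fold changed sign under any of the alternatives, and 370 of 408 recomputed ratios stayed on their side of 2-fold within 1.5 times of the reported value. The 2 filter settings cannot change a gene's own ratio, so their ratios count among the 370 by design. Dio2 and Thrb stayed below 1 TPM, where a pseudocount of 1 TPM holds ratios near 0. The share is therefore not a measure of how firm the calls are. Pan-neuronal scaling moved the median of all genes to −0.13, −0.18 and −0.12 in Isl1CKO, Pou4f1KO and DKO against control. The count of thyroid genes past 2-fold in Isl1CKO against control went from 1 to 0 with a pseudocount of 5 TPM. In Pou4f1KO against control it went from 1 to 0 with that pseudocount, to 2 with a pseudocount of 0.1 TPM or pan-neuronal scaling and to 3 with a 1.5-fold line. In DKO against Pou4f1KO it went from 3 to 1 with a pseudocount of 5 TPM. The departure from additivity had 0 thyroid genes past 2-fold, but 1 with FPKM, pan-neuronal scaling or a pseudocount of 5 TPM and 2 with a pseudocount of 0.1 TPM or a 1.5-fold line. Ttr reached 1.07 to 1.10 in the first 3 of these. The cause of these changes was not tested.

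Over all compared genes, the number past 2-fold was lowest with a pseudocount of 5 TPM and highest with a 1.5-fold line: 36 to 814 against 181 in Isl1CKO against control, 118 to 1156 against 407 in Pou4f1KO, 178 to 1342 against 504 in DKO, 65 to 921 against 265 in DKO against Pou4f1KO, 71 to 1019 against 316 in DKO against Isl1CKO and 66 to 1292 against 379 in the departure. Pan-neuronal scaling moved the higher and lower calls from 88 and 93 to 69 and 124 in Isl1CKO, from 147 and 260 to 104 and 334 in Pou4f1KO and from 212 and 167 to 317 and 124 in the departure. FPKM moved them to 36 and 25 in Isl1CKO, and from 131 and 185 to 32 and 101 in DKO against Isl1CKO. No paired analysis was possible because each genotype has 1 library. Depth limits Dio2, Thrb and Dio3os in DKO most.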
